A study of Mus musculus with 8 samples.

Results

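ATP-binding cassette (ABC) transporters are membrane proteins that bind and hydrolyse ATP to move drugs, lipids, peptides, heme, cofactors and other substrates across membranes. They were examined here in CT26 cells, a mouse colon carcinoma line, by messenger RNA sequencing of a Tead1/4 knockout group (KO, 4 libraries) and an unedited group (WT, 4 libraries). The genes described are the rows of the count table whose symbol begins with Abca, Abcb, Abcc, Abcd or Abcg and a digit, without the sterol exporters Abca1 and Abcg1. This rule, which uses names and no measured value, gave 44 genes of 26642 rows. Both groups were grown in the same medium, RPMI with serum, and the labels give no treatment. Which part of Tead1 or Tead4 was edited, and whether the KO cells are 1 clone, is not in the labels. Neither do they state that the 4 libraries of a group come from separate cultures, so every p-value reflects the spread among these libraries alone, and that spread may be technical.

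The family is built from a membrane-spanning domain, which forms the path, and a nucleotide-binding domain, which holds ATP. Full transporters carry a pair of each in 1 chain, whereas the shorter members carry 1 of each and work as dimers. In tumour cells the family is best known for P-glycoprotein and the multidrug resistance proteins, which pump chemotherapeutic drugs out of the cell, while other members act inside the cell on the membranes of mitochondria, peroxisomes and lysosomes. The genes were grouped by these roles into 10 for drug and conjugate efflux, 16 for lipids, sterols and bile salts, 9 of organelles and 9 others.

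The sequence that most family members share is the Walker A loop, whose residues wrap around the phosphates of ATP. In the reading frames of the GENCODE M21 transcripts, the pattern of glycine, any 2 residues, glycine, any residue, glycine, lysine, and serine or threonine was found 1 time in each of the 9 organelle genes, which are of the shorter kind. It was found 2 times in 9 of the 10 drug efflux genes and 1 time in Abcg2, also of the shorter kind. Abcg3 and Abcg8 held no match, which says only that these letters are not in their reading frames. The loops below belong to genes that passed the test of KO against WT and to Abcb1b, the near copy of Abcb1a. They are printed 5′ to 3′ on the gene's strand with GRCm38 coordinates, and capitals mark the codons of the loop.
Abcb1a, first loop, exon 12, chr5:8702195-8702242, plus strand: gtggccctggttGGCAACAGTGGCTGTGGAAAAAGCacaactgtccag
Abcb1b, first loop, exon 12, chr5:8824515-8824562, plus strand: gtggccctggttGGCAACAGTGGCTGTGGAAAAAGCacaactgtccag
Abcb1a, second loop, exon 25, chr5:8738806-8738853, plus strand: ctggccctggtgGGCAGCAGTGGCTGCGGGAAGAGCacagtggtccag
Abcb1b, second loop, exon 25, chr5:8853540-8853587, plus strand: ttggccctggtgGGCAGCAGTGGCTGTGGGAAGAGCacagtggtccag
Abcc10, first loop, exon 6, chr17:46316580-46316627, minus strand: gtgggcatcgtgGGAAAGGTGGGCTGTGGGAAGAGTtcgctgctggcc
Abcc1, first loop, exon 16, chr16:14443379-14443426, plus strand: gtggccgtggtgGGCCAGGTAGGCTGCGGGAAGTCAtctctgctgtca
Abca8a, first loop, exon 12, chr11:110071451-110071498, minus strand: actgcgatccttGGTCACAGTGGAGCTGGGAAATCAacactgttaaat
Abca8b, first loop, exon 12, chr11:109969093-109969140, minus strand: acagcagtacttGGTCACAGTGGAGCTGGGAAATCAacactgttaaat
Abcb8, only loop, across the junction of exons 12 and 13, chr5:24406467-24406687, plus strand: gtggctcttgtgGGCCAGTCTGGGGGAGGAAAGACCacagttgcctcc
The first loops of Abcb1a and Abcb1b were identical over all 48 bases, and their second loops differed at 2 bases, 1 of them in the capitals. A read that lies wholly within an identical stretch cannot be assigned to either gene alone, which bears on the values of the pair given further on.

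Total counts per library lay between 29679405 and 32774905, at which 3 counts correspond to 0.0873 to 0.110 CPM (the counts-per-million unit, scaled as below). KO replicate 1 stood apart from the other KO libraries, with 14345 rows above 0 against 17759 to 17948 in KO replicates 2 to 4, while the WT libraries had 14566 to 15430. WT replicate 1 resembled WT replicate 4, and WT replicate 2 resembled WT replicate 3, more than the libraries of any other WT pair resembled each other. In counts scaled by TMM (trimmed mean of M-values) factors, the 4 KO libraries had 51.2, 64.8, 76.3 and 77.8 CPM of Tead1, against 319, 155, 142 and 209 CPM in the 4 WT libraries. For Tead1 the log2 fold change came to -1.61 (SE 0.27; edgeR adjusted p = 0.00217), and every KO library lay below every WT library. Tead4 had 25.8, 23.3, 31.2 and 37.0 CPM in the KO libraries, against 52.1, 36.7, 39.4 and 63.2 CPM in the WT libraries. Its log2 fold change came to -0.71 (SE 0.22; edgeR adjusted p = 0.0261), with KO replicate 4 slightly above WT replicate 2. The exact two-sided permutation p was 0.0286 for Tead1, the smallest that 70 assignments allow, and 0.0571 for Tead4, which did not pass. Of 7 epithelial markers 5 stayed under 1 CPM in all libraries. Among them Epcam, a common marker of epithelial cells, was at 0 in all 8, although the cells are labelled a carcinoma. Summed epithelial markers were 71.2 to 89.6 CPM in KO and 36.2 to 43.5 CPM in WT. Nearly all of this was Krt18, at 76.3 ± 8.65 CPM in KO and 38.5 ± 2.93 CPM in WT (SD, n = 4 each). Of 7 leukocyte markers 6 stayed under 1 CPM in all libraries, with Adgre1 and Cd3e at 0 throughout. The 7 together summed to 8.86 to 12.3 CPM in KO and 1.31 to 3.35 CPM in WT. Nearly all of this was Cd68, at 11.2 ± 1.62 CPM in KO and 2.14 ± 1.11 CPM in WT (SD, n = 4 each). The 4 endothelial markers stayed under 1 CPM, as did 3 of the 4 smooth muscle markers. The smooth muscle markers summed to 5.60 to 10.3 CPM in KO and 0.736 to 1.1 CPM in WT. Most of this was Des, at 8.30 ± 2.21 CPM in KO and 0.819 ± 0.139 CPM in WT (SD, n = 4 each). The fibroblast markers summed to 1565 to 2072 CPM in KO and 1364 to 2023 CPM in WT, mostly Col1a2, while 2 of the 4 tested were higher in KO. These were Pdgfra, at 35.9 ± 8.43 CPM in KO and 8.01 ± 2.72 CPM in WT (SD, n = 4 each; edgeR adjusted p = 0.000837), and Dcn, at 7.83 ± 5.29 CPM in KO and 0.0355 ± 0.0710 CPM in WT (edgeR adjusted p = 0.000803). Their part in the results was not tested, and in such bulk libraries fewer cells of a type and less RNA per cell cannot be told apart.

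Of the 44 ABC transporter genes, 22 had enough counts to be tested for KO against WT with edgeR's quasi-likelihood test, with p-values adjusted by Benjamini-Hochberg over 13265 rows. A gene is called where its adjusted p is under 0.05. Among them Abcb1a, Abcc10, Abca8a, Abca8b and Abcb8 were higher in KO and Abcc1 was lower. In all 7 of the 22 tested genes (31.8%) were called, against 41.6% of all rows tested. Higher calls made up 6 of 22 (27.3%), against 20.9% of all rows, and lower calls 1 of 22, against 20.6%. At least 2-fold higher were 4 of the 22, against 13.8% of all rows, and at least 2-fold lower were 0, against 8.56%. KO and WT did not overlap in 7 of the 22, against 40.7% of all rows, with KO above WT in 4, against 21.1%, and below in 3, against 19.6%. These shares of 22 genes rest on few genes and are given as counts beside the table's shares. Without KO replicate 1, 12 of 25 tested ABC genes were called, against 49.4% of all rows. The median log2 fold change of the 22 tested genes was 0.40, against 0.02 over all rows. This median covers only genes that passed the filter on low counts, and genes that passed it through KO alone had to be higher there.

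**Figure D1:**
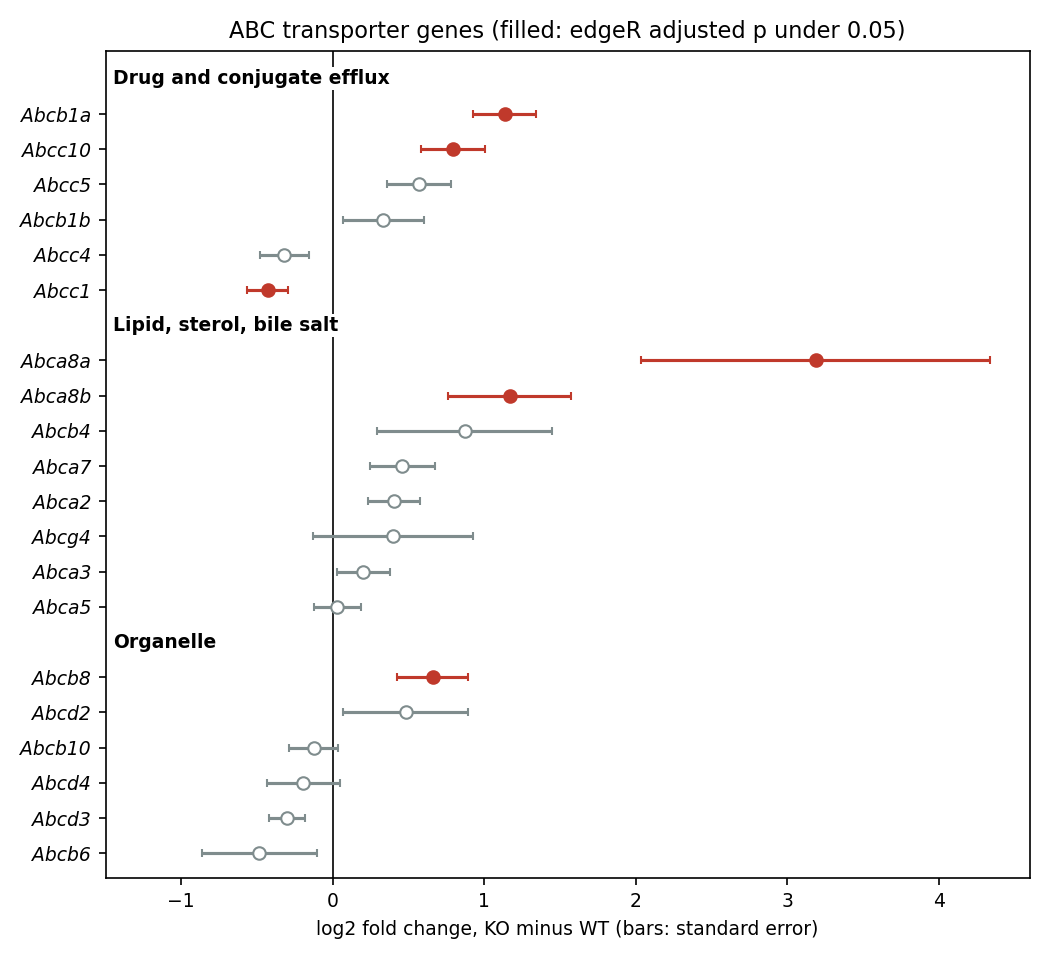
Log2 fold change, KO minus WT, with its standard error, for 20 of the 22 tested ABC transporter genes, grouped by role from top to bottom. Filled red points are genes past an edgeR adjusted p of 0.05. Abca8a has the largest value, 3.19, and the widest error, and Abcc1 is the only filled point left of 0.

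Scaling moved these values together. With upper-quartile factors or library size alone in place of TMM factors, the median over all rows was 0.20, and 64.6% and 63.5% of all calls were higher in KO, against 50.4% with TMM factors. The median of the tested ABC genes moved with it, to 0.58 and 0.59. The calls also depended on single libraries. Without KO replicate 1, 10 ABC genes were called higher, with Abca2, Abcc5, Abca4, Abcb9 and Abcc6 added and Abcb8 lost, and 24.7% of all rows were called higher. Of these, Abca4, Abcb9 and Abcc6 passed the filter on low counts through the KO libraries, so that they had to be higher in KO. The count of ABC genes called higher was 3, 2 and 3 without KO replicates 2, 3 and 4, where rows called higher numbered 2094, 2041 and 2166, against 2779 with all libraries. It was 4, 7, 6 and 3 without WT replicates 1, 2, 3 and 4, where rows called higher numbered 2294, 2652, 2855 and 2224. In these WT fits 25 ABC genes were tested, and those added passed the filter on low counts through KO libraries, so that they had to be higher. Without WT replicate 2, 3 organelle genes were called higher, against 2 with all libraries, and the added call is no support for a difference. KO replicate 1 was the highest or lowest KO library in 18 of the 22 tested ABC genes (81.8%), against 78.5% of all rows tested. The directions differed: KO replicate 1 was lowest in 14 and highest in 4 of these ABC genes, against 4990 and 5424 of the 13265 rows tested. It was the lowest KO library in 5 of the 6 ABC genes called higher, and in 1629 of the 2779 rows called higher.

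Among the drug efflux genes, 6 of 10 were tested, 2 were called higher (33.3%) and 1 lower. Over all rows tested, 20.9% were called higher and 20.6% lower, and the counts of each role rest on few genes. Abcb1a encodes 1 of the pair of mouse P-glycoproteins, which expel hydrophobic drugs, and spans chr5:8660077-8748575 on the plus strand (ENSMUSG00000040584). Its level was 116, 158, 207 and 228 CPM in the 4 KO libraries, against 80.7, 85.6, 73.0 and 83.5 CPM in the 4 WT libraries. All KO libraries lay above all WT libraries, and KO replicate 1 was the lowest of its group. The means were 177 ± 50.5 CPM in KO and 80.7 ± 5.51 CPM in WT (SD, n = 4 each), a 2.20-fold difference. For Abcb1a the log2 fold change came to 1.13 (SE 0.21; edgeR adjusted p = 0.00313). It was called under all 18 alternative settings, with log2 fold changes between 1.00 and 1.33.

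Abcb1b, the second P-glycoprotein gene, lies next to Abcb1a at chr5:8798147-8866315 and had the highest level per length of the 44 genes. It had 305, 319, 603 and 673 CPM in KO, against 391, 346, 356 and 416 CPM in WT. KO replicates 1 and 2 lay below every WT library, and KO replicates 3 and 4 lay above every WT library. The means were 475 ± 190 CPM in KO and 377 ± 32.1 CPM in WT (SD, n = 4 each). For Abcb1b the log2 fold change came to 0.33 (SE 0.27; edgeR adjusted p = 0.332), within the spread between libraries.

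The pair was therefore compared within each library, where scaling cancels. Per kilobase of exon, Abcb1b had 1.81, 1.39, 2.0 and 2.02 times the level of Abcb1a in the KO libraries, against 3.32, 2.77, 3.35 and 3.41 times in the WT libraries. Every KO ratio was below every WT ratio. The mean ratio was 1.80 ± 0.29 in KO and 3.21 ± 0.30 in WT (SD, n = 4 each). On the log2 scale the difference was -0.84, with a two-sided exact permutation p of 0.0286, the smallest that 70 assignments allow. Leaving out each library in turn gave differences of -0.91 to -0.72. The size of the ratio depends on the annotated lengths, which are the same in both groups.

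**Figure D2:**
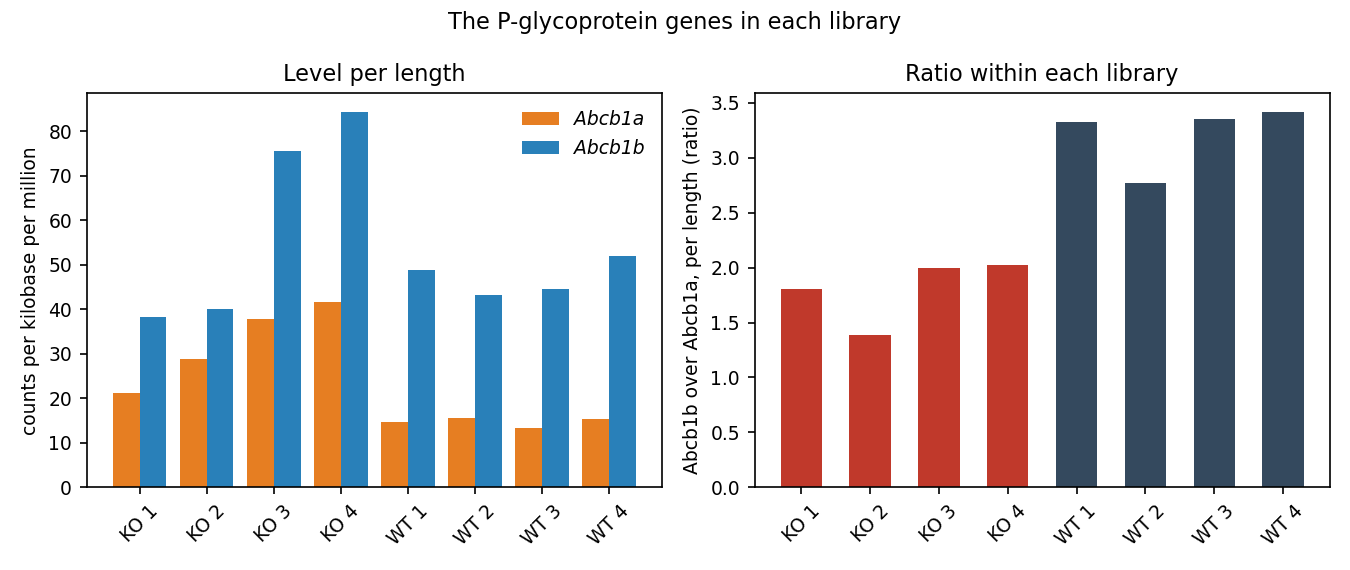
Left, level per length of Abcb1a and Abcb1b in each library (bars, CPM per kilobase). Right, the ratio of Abcb1b over Abcb1a in each library. The 4 KO ratios reach at most 2.02 and the 4 WT ratios are at least 2.77, while the level of Abcb1b is highest in KO replicates 3 and 4 and lowest in KO replicates 1 and 2.

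How far these genes could share reads was read from their GENCODE M21 transcripts. The coding sequences of Abcb1a and Abcb1b are 3828 bases each and were 87.98% identical over 3819 aligned bases. Their longest identical run was 338 bases. Of all stretches of 50 bases in its transcripts, Abcb1a shared 16.3% with Abcb1b, and at 100 and 150 bases it shared 9.03% and 5.54%. Abcb1b shared 11.1% of its stretches of 50 bases with Abcb1a. The treatment of reads matching several genes is not given in the labels, so the split between the pair is uncertain to that extent.

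Abcc10 encodes a multidrug resistance-associated protein that carries drugs such as taxanes, and lies at chr17:46303221-46328352 on the minus strand. It had 12.1, 17.7, 20.8 and 21.4 CPM in KO, against 10.9, 10.0, 12 and 8.59 CPM in WT. The groups did not overlap, but KO replicate 1 was close to WT replicate 3. Means of Abcc10 were 18 ± 4.25 CPM in KO and 10.4 ± 1.45 CPM in WT (SD, n = 4 each), 1.73-fold apart, with a log2 fold change of 0.79 (SE 0.21; edgeR adjusted p = 0.0152). The adjusted p from edgeR was 0.0524 without KO replicate 3, and 0.0736 with WT replicates 1 and 4 summed and 2 and 3 summed. In the annotation, 51 exonic bases of Abcc10 overlap Dlk2 on the other strand.

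Abcc1, which exports glutathione conjugates and leukotriene C4 as well as drugs, lies at chr16:14361558-14475737 on the plus strand. It had 147, 126, 163 and 172 CPM in KO, against 201, 205, 196 and 217 CPM in WT. All KO libraries lay below all WT libraries. Means were 152 ± 19.97 CPM in KO and 205 ± 8.78 CPM in WT (SD, n = 4 each), so that WT was 1.35-fold higher. For Abcc1 the log2 fold change came to -0.43 (SE 0.14; edgeR adjusted p = 0.0304). The call was lost with upper-quartile factors (-0.25, edgeR adjusted p = 0.162) and library size alone (-0.24, edgeR adjusted p = 0.196), and in 11 of 18 alternatives in all. Left out alone, KO replicates 2 and 3 (edgeR adjusted p = 0.0968 and 0.0696) and WT replicates 1, 2 and 4 (edgeR adjusted p = 0.0526, 0.0562 and 0.0666) each ended the call.

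The other tested efflux genes did not pass. Abcc5, an exporter of cyclic nucleotides and nucleotide analogues, averaged 85.0 ± 13.6 CPM in KO and 57.3 ± 15.6 CPM in WT (SD, n = 4 each). Its log2 fold change came to 0.57 (SE 0.21; edgeR adjusted p = 0.0544), and it passed in 8 of 18 alternatives, among them without KO replicate 1 (edgeR adjusted p = 0.0328) and without WT replicate 3 (edgeR adjusted p = 0.0265). Abcc4, which exports cyclic nucleotides and prostaglandins, averaged 171 ± 27.1 CPM in KO and 213 ± 30.6 CPM in WT (SD, n = 4 each), with a log2 fold change of -0.32 (SE 0.16; edgeR adjusted p = 0.143). Of the 4 efflux genes not tested, Abcg2, the breast cancer resistance protein, was at 0 in all 8 libraries. Abcb5 and Abcc3 had 2 counts each over the KO libraries and 0 over the WT libraries, and Abcc2, which exports conjugates into bile, had 26 over KO and 0 over WT.

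**Figure D3:**
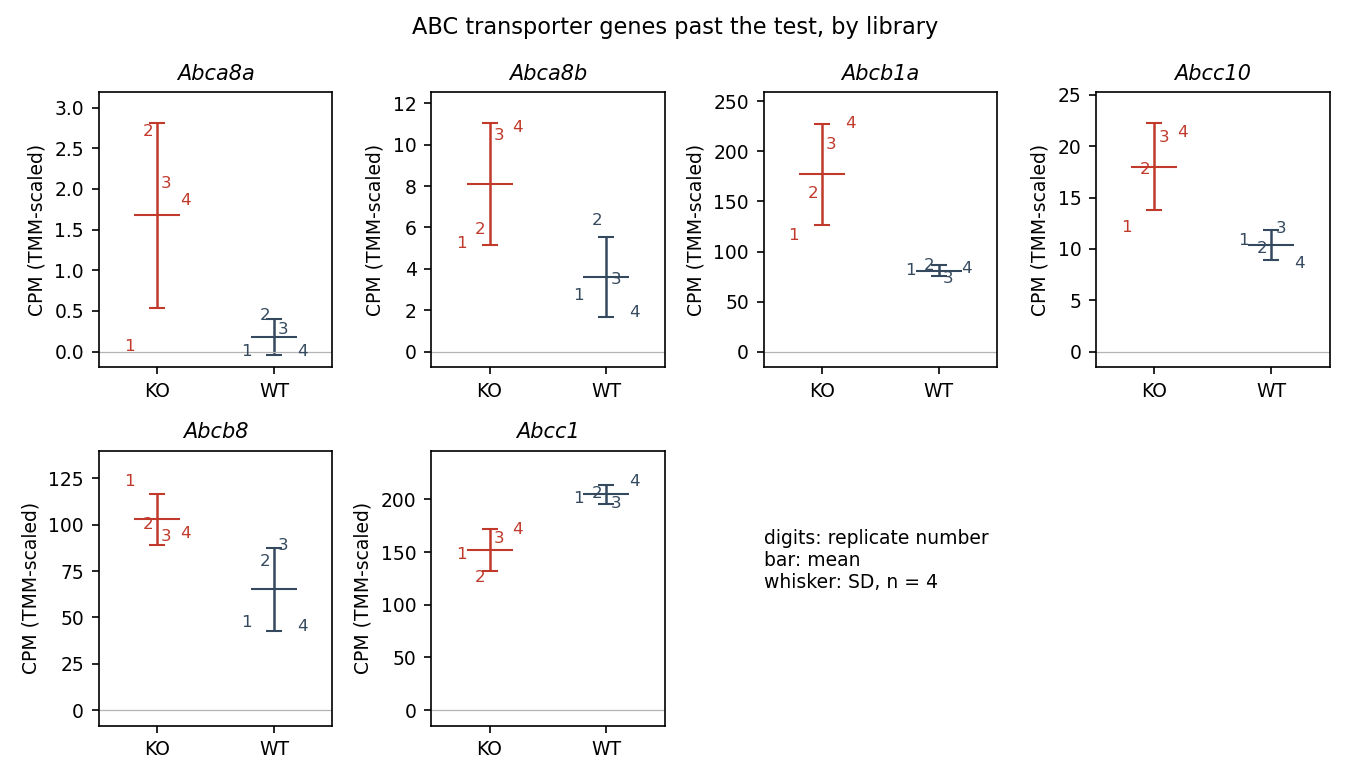
CPM of 6 of the 7 called ABC transporter genes in each library, KO left of WT, with digits for the replicate number, a bar for the mean and whiskers for the SD (n = 4). The groups do not overlap for Abcb1a, Abcc10, Abcb8 and Abcc1, and overlap for Abca8a and Abca8b, and KO replicate 1 is the lowest KO library in all but Abcb8 and Abcc1.

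Of the genes for lipids, sterols and bile salts, 8 of 16 were tested, 2 were called higher and none lower. The share called higher was 25%, against 20.9% of all rows tested, and 20.6% of all rows were lower. Both called genes belong to a cluster on chromosome 11 and had low levels. Abca8b, whose human relative ABCA8 is linked to cholesterol export, lies at chr11:109932190-109995845 on the minus strand. It had 5.25, 5.91, 10.4 and 10.8 CPM in KO, against 2.72, 6.31, 3.5 and 1.88 CPM in WT. WT replicate 2 lay above KO replicates 1 and 2, so the groups overlapped. Means of Abca8b were 8.10 ± 2.93 CPM in KO and 3.61 ± 1.92 CPM in WT (SD, n = 4 each), with a log2 fold change of 1.17 (SE 0.40; edgeR adjusted p = 0.0412). The call was lost without KO replicates 2, 3 and 4 (edgeR adjusted p = 0.0534, 0.110 and 0.107) and without WT replicates 1, 3 and 4 (edgeR adjusted p = 0.102, 0.0803 and 0.0987), each left out alone, and with those WT pairs summed (edgeR adjusted p = 0.0996).

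Abca8a, the neighbouring gene at chr11:110025634-110095978, had 2, 89, 71 and 61 counts in KO, against 0, 13, 8 and 0 counts in WT. These are 0.0632, 2.71, 2.06 and 1.86 CPM in KO, against 0, 0.444, 0.270 and 0 CPM in WT. KO replicate 1 lay below WT replicates 2 and 3, and the other KO libraries lay above every WT library. The fitted log2 fold change of Abca8a was 3.19 (SE 1.15; edgeR adjusted p = 0.0486), with 2 of the 4 WT libraries at 0. The call was lost without KO replicates 2, 3 and 4 (edgeR adjusted p = 0.119, 0.0986 and 0.0908) and without WT replicates 1, 3 and 4 (edgeR adjusted p = 0.105, 0.0819 and 0.103), each left out alone. It was also lost with limma-voom (adjusted p = 0.130) and with the WT pairs summed (edgeR adjusted p = 0.167). The coding sequences of Abca8a and Abca8b were 73.19% identical, with a longest identical run of 97 bases, and 1.64% of the stretches of 50 bases in Abca8a occurred in Abca8b.

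Abca2, which handles lipids in late endosomes and lysosomes and is best known in myelin-forming cells, had the highest level per length of the lipid genes. It had 212, 326, 265 and 263 CPM in KO, against 201, 192, 242 and 172 CPM in WT. KO replicate 1 lay below WT replicate 3, and the other KO libraries lay above all of WT. Means of Abca2 were 266 ± 46.7 CPM in KO and 202 ± 29.2 CPM in WT (SD, n = 4 each), and the log2 fold change came to 0.40 (SE 0.17; edgeR adjusted p = 0.0833). Without KO replicate 1 it passed, at 0.48 (edgeR adjusted p = 0.0301).

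The remaining tested lipid genes, Abca7, Abca3, Abca5, Abcb4 and Abcg4, had log2 fold changes of 0.03 to 0.87 and did not pass. Abca7, a phospholipid exporter with a role in phagocytosis, averaged 87.3 ± 9.48 CPM in KO and 63.5 ± 19.6 CPM in WT (SD, n = 4 each). Its log2 fold change came to 0.46 (SE 0.22; edgeR adjusted p = 0.110), and it passed without WT replicate 3 (0.62, edgeR adjusted p = 0.0388). Abca3, which loads surfactant lipids into the lamellar bodies of lung cells, averaged 106 ± 6.89 CPM in KO and 92.0 ± 20.4 CPM in WT, with a log2 fold change of 0.20 (SE 0.17; edgeR adjusted p = 0.366). Abca5, a lysosomal member, had a log2 fold change of 0.03 (SE 0.15; edgeR adjusted p = 0.890). Abcb4, which moves phosphatidylcholine into bile and lies beside the P-glycoprotein genes, was near the floor at 0.530 ± 0.293 CPM in KO and 0.288 ± 0.121 CPM in WT (SD, n = 4 each). Abcg4, a sterol exporter of the brain, averaged 2.91 ± 1.82 CPM in KO and 2.21 ± 0.72 CPM in WT.

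Of the organelle genes, 8 of 9 were tested, 2 were called higher and none lower, with a median log2 fold change of -0.16. The share called higher was 25%, against 20.9% of all rows tested, and 20.6% of all rows were lower. Among the peroxisomal genes, Abcd2 and Abcd3 did not pass. Abcd2, a carrier of fatty acyl groups, averaged 0.997 ± 0.307 CPM in KO and 0.713 ± 0.203 CPM in WT (SD, n = 4 each), with a log2 fold change of 0.48 (SE 0.41; edgeR adjusted p = 0.366). Abcd3, which imports branched-chain and other acyl groups, averaged 64.4 ± 4.49 CPM in KO and 79.5 ± 4.49 CPM in WT (SD, n = 4 each). All KO libraries lay below all WT libraries for Abcd3, but its log2 fold change of -0.30 (SE 0.12; edgeR adjusted p = 0.0697) did not pass. Abcd4, which acts with Lmbrd1 in moving cobalamin out of lysosomes, had a log2 fold change of -0.19 (SE 0.24; edgeR adjusted p = 0.537).

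Abcb8, a transporter of the mitochondrial inner membrane at chr5:24393663-24410054 on the plus strand, had the highest mean level per length of the organelle genes. It had 123, 100, 93.5 and 95.1 CPM in KO, against 47.1, 79.9, 88.8 and 45.1 CPM in WT. The groups did not overlap, WT replicate 3 was close to KO replicates 3 and 4, and WT replicates 1 and 4 lay well below WT replicates 2 and 3. Means of Abcb8 were 103 ± 13.8 CPM in KO and 65.2 ± 22.4 CPM in WT (SD, n = 4 each), 1.58-fold apart, with a log2 fold change of 0.66 (SE 0.24; edgeR adjusted p = 0.0481). The call was lost without any single KO replicate (edgeR adjusted p = 0.0721 to 0.0999) and without WT replicate 1 or WT replicate 4 (edgeR adjusted p = 0.126 and 0.131), and with the WT pairs summed (edgeR adjusted p = 0.130).

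Abcb10 and Abcb6 did not pass. Abcb10, a mitochondrial member that matters for heme synthesis, had a log2 fold change of -0.13 (SE 0.16; edgeR adjusted p = 0.556). Abcb6, a porphyrin transporter, had 46.4, 32.6, 22.4 and 20.5 CPM in KO, against 25.4, 58.7, 63.1 and 23.4 CPM in WT. Its values varied more within each group than between them (log2 fold change -0.49, SE 0.38; edgeR adjusted p = 0.323). In the annotation 55.2% of the exonic bases of Abcb6 are shared with Gm29253 on the same strand, a gene with no row in the table. WT replicates 2 and 3 lay on the same side of WT replicates 1 and 4 in 15 of the 22 tested ABC genes. This is 68.2%, the same share as over all rows when both sides are counted together. The sides differed: they lay above in 13 and below in 2 of these ABC genes, against 4690 and 4357 of the 13265 rows tested. Whether those pairs share a culture is not given in the labels.

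Per length, the roles differed in which genes carried them. Levels here are TMM-scaled CPM per kilobase of merged exons. In the drug efflux group Abcb1b led with 59.5 ± 23.8 in KO and 47.2 ± 4.01 in WT, and Abcb1a had 32.3 ± 9.21 in KO and 14.7 ± 1.01 in WT (SD, n = 4 each). Abcc4 had 26.7 ± 4.24 in KO and 33.4 ± 4.78 in WT. Abcb1a thus stood next to Abcc4 in KO, where their difference was within the spread, and below it in WT. Of the summed level of the group, Abcb1a held 23.2 ± 1.68% in KO and 12.7 ± 1.00% in WT, Abcc4 held 19.7 ± 2.54% in KO and 28.7 ± 2.40% in WT, and Abcb1b held 41.6 ± 5.68% in KO and 40.8 ± 1.33% in WT. The sums were 99.4, 113, 164 and 180 in the KO libraries, against 122, 110, 109 and 122 in the WT libraries, so KO replicates 3 and 4 were above and KO replicate 1 was below all of WT.

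In the lipid group Abca2 held 52.5% of the summed level per length in KO and 52.3% in WT, followed by Abca7 with 21.5% in KO and 19.9% in WT and Abca3 with 18.8% in KO and 21% in WT. The sums of the lipid group were 51.5, 70.6, 60.4 and 59.5 in KO, against 43.2, 49.3, 56.6 and 37.0 in WT, and overlapped. In the organelle group Abcb8 had the highest mean, 21.7 ± 2.91 in KO and 13.8 ± 4.73 in WT, or 31.9 ± 1.49% of the sum in KO and 20.7 ± 2.98% in WT. Abcd3, Abcb10, Abcd4 and Abcb6 lay between 5.73 and 9.77 on average in KO. In WT replicates 1 and 4 Abcb8, at 9.95 and 9.51, lay below Abcd3, at 11.5 in both, so its order in WT does not hold in every library. The sums of the organelle group were 76.8, 65.5, 64.7 and 64.7 in KO, against 54.4, 74.0, 79.3 and 53.2 in WT, and overlapped. With the length of the longest transcript in place of merged exons, 23 of the 44 group means of the tested genes moved by more than their SD, so these orders hold for merged exons.

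**Figure D4:**
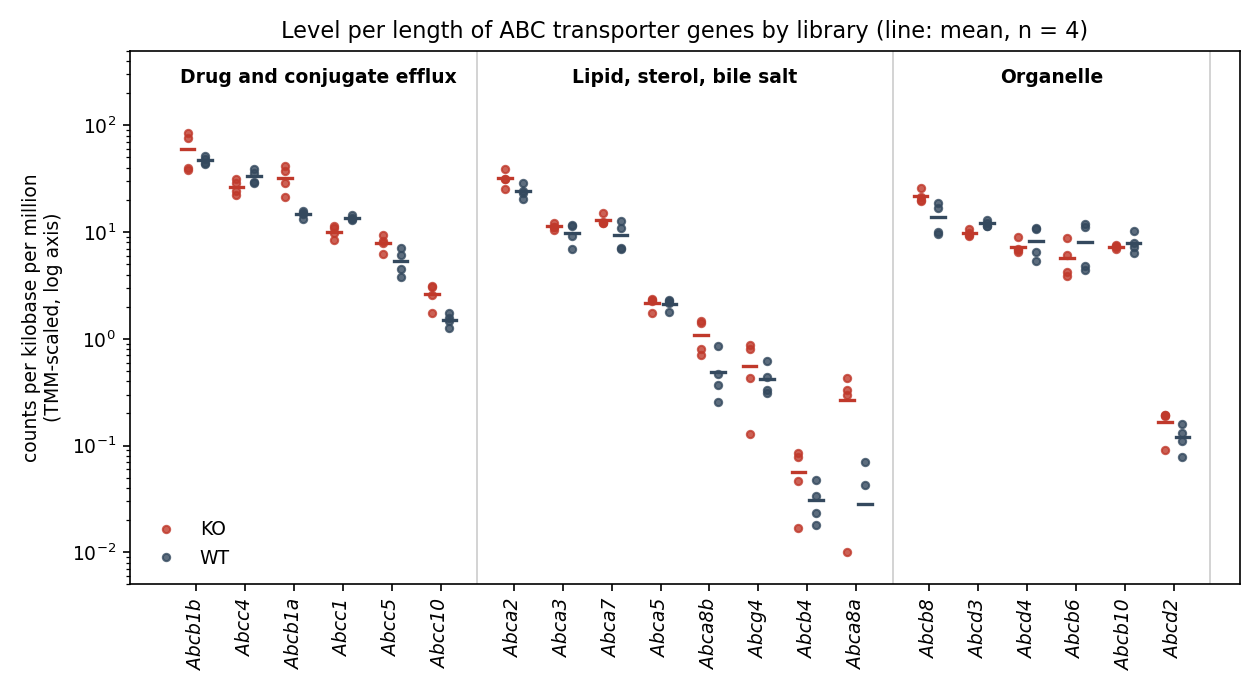
Level per length of 20 of the 22 tested ABC transporter genes (log axis, CPM per kilobase), with points for libraries and lines for means, KO left of WT, ordered by the WT mean within each role. Abca8a in 2 WT libraries is at 0 and cannot be drawn on this axis. Abcb1b, Abca2 and Abcb8 have the highest mean of their role in WT.

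The remaining 22 ABC genes had too few counts for a test. Of these, 4 were at 0 in every library, namely Abcg2, Abca16, Abcg3 and the potassium channel subunit Abcc9. Another 6 were at 0 in all WT libraries and had counts in KO, and 16 had a larger sum in KO than in WT. No share over all low rows stands beside these counts, so they are not read as a trait of ABC genes. Over the whole table, KO replicates 2 to 4 had 17759 to 17948 rows above 0, against 14566 to 15430 in the WT libraries. Abcb9, a lysosomal peptide transporter, had 5, 75, 64 and 37 counts in KO, against 9, 0, 5 and 3 counts in WT. KO replicate 1 lay inside the WT range and the other KO libraries lay above it. Abca4, a retinoid transporter of photoreceptors, had 140 counts over KO and 11 over WT, Abcc6, which lowers calcification in connective tissue, had 49 over KO and 8 over WT, and Abca9 had 43 over KO and 2 over WT. The low genes followed the libraries: a count was found in 1 of the 22 in KO replicate 1, in 9, 13 and 12 of them in KO replicates 2, 3 and 4, and in 5, 5, 4 and 3 of them in WT replicates 1 to 4. KO replicate 1 also had the fewest rows above 0 of all libraries, and its part in these counts was not tested. Without KO replicate 1, Abcb9, Abca4 and Abcc6 passed the filter on low counts, through the 3 KO libraries in which they are high. Their calls in that fit are therefore no support for a difference.

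The rest of this low group had few counts in either genotype. Abca6 had 19 counts over KO and 0 over WT, and Abca13 had 10 over KO and 0 over WT. The bile salt exporter Abcb11 had 11 over KO and 8 over WT, and the sterol exporters Abcg5 and Abcg8 had 8 and 11 over KO, against 5 and 3 over WT. The skin lipid transporter Abca12 had 6 over KO and 2 over WT, and Abcc8, a subunit of the potassium channel of insulin-secreting cells, had 8 over KO and 2 over WT. Abca17 had 6 over KO and 4 over WT, Abca14 had 2 over KO and 0 over WT, Abca15 had 0 over KO and 2 over WT, and Abcc12 had 2 over each. These are raw counts summed over 4 libraries per genotype, and no fold is drawn from them.

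Promoters were searched for the TEAD core GGAATG, for TGACNNNGC, the core of the antioxidant response element, and for the E-box CACGTG, each on both strands in the 250 bases before RefSeq starts on GRCm38.p6. The table held 39 promoters of 33 ABC genes. The TEAD core was found in 8 of 39 (20.5%), against 12.6% of all 32851 promoters, and in 3 of 18 promoters of the tested ABC genes (16.7%), against 10.4% of promoters of all tested genes. Among the 8, the matches of Abcg5 and Abcg8 are the same bases, chr17:84683113-84683118, counted for both genes. Those of Abcc12 and Abcg8 lie at RefSeq starts 14096 and 6819 bases from the GENCODE starts. The shares rest on few promoters. TGACNNNGC was found in 4 of 39 (10.3%), against 10.2% of all promoters, and CACGTG in 3 of 39 (7.69%), against 6.02%. Only 15 of the 22 tested ABC genes had a promoter to search, and the called genes Abcc1 and Abcb8 were among those without one. The tested genes with the TEAD core were Abca8a, Abca3 and Abcb1a, of which Abca8a and Abcb1a were called higher in KO and Abca3 was not called. For Abcb1a the RefSeq start lies 92986 bases from the GENCODE start, so its match is not printed. The other two are shown on the gene's strand, with the core in capitals.
Abca8a, chr11:110095964-110096029, minus strand: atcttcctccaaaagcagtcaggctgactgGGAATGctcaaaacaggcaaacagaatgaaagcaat
Abca3, chr17:24351839-24351904, plus strand: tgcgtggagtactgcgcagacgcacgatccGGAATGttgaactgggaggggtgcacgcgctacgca
A match describes letters only, and no binding was measured.

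Genes around the transporters were read from the same fit. Of 9 ABC genes outside the naming rule, 8 were tested, 4 were called higher and 3 lower. Over all rows tested, 20.9% were called higher and 20.6% lower. Tap2 and Tap1, which pump peptides into the endoplasmic reticulum for MHC class I, had log2 fold changes of 2.14 (SE 0.42; edgeR adjusted p = 0.00438) and 2.0 (SE 0.37; edgeR adjusted p = 0.00352). Abca1, the cholesterol exporter, had 1.96 (SE 0.45; edgeR adjusted p = 0.00829), with overlapping groups, and Abce1, a ribosome recycling factor that transports nothing, had -1.76 (SE 0.28; edgeR adjusted p = 0.00198). Of 16 regulators of ABC genes, 12 were tested, 3 were called higher and 2 lower, beside the same shares of all rows. Srebf2, which drives sterol synthesis genes, had a log2 fold change of -0.90 (SE 0.14; edgeR adjusted p = 0.00176) and Trp53 -0.94 (SE 0.19; edgeR adjusted p = 0.00484). The bile acid receptor Nr1h4 had 1.73 (SE 0.41; edgeR adjusted p = 0.00935) at only 3.07 ± 0.69 CPM in KO and 0.919 CPM in WT, and the oxysterol receptor Nr1h2 had 0.57 (SE 0.14; edgeR adjusted p = 0.0107). Ppara was at 0 in all libraries, and the drug-sensing receptor Nr1i2 was not tested.

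All 15 partners of the organelle transporters were tested, and 5 were called higher and 1 lower, with a median log2 fold change of -0.11. Of all rows tested, 20.9% were called higher and 20.6% lower, so these few calls are given as counts only. Lmbrd1, the lysosomal partner of Abcd4, averaged 66.5 ± 12.5 CPM in KO and 28.2 ± 2.84 CPM in WT (SD, n = 4 each), with a log2 fold change of 1.24 (SE 0.17; edgeR adjusted p = 0.00111). Mmachc, which receives cobalamin in the cytosol, averaged 9.52 ± 0.58 CPM in KO and 18.1 ± 4.19 CPM in WT (SD, n = 4 each), with -0.93 (SE 0.20; edgeR adjusted p = 0.00566). Abcd4 itself, between them in this route, did not pass. Nfs1, the mitochondrial cysteine desulfurase of iron-sulfur assembly, had 0.72 (SE 0.20; edgeR adjusted p = 0.0175). Of 8 partners of plasma membrane transporters 5 were tested. The scaffold Slc9a3r2 was higher in KO, by 0.99 on the log2 scale (SE 0.21; edgeR adjusted p = 0.00538), and Rdx, radixin, which anchors transporters to actin, was lower (-0.68, SE 0.18; edgeR adjusted p = 0.0133). The potassium channel pores Kcnj8 and Kcnj11, which pair with Abcc9 and Abcc8, were at 0 in all libraries.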

How the data were processed

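Messenger RNA libraries of CT26 cells were grouped by title and genotype label into KO (4) and WT (4). Whole-number raw counts for each gene were deposited by the authors in a pair of tables with identical values, of which 1 was used. HISAT2, StringTie and GRCm38 are named in the submitters' processing notes; the counter, strand setting and treatment of multiply matching reads are not given in the sources used, so overlapping genes and near copies are uncertain. Of 26642 rows, 22036 are annotated genes and 4606 unannotated loci. Replicate libraries differed by more than sampling noise (chi-square per degree of freedom 34.7 to 257 over rows with at least 20 counts), so no pair was taken for copies of 1 library and each was counted as 1 replicate. This does not show that they are independent: WT replicates 1 and 4 (34.7) and 2 and 3 (35.0) were closer than other WT pairs (201.5 to 241.5).

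After filterByExpr (at least 10 counts, total at least 15) and TMM scaling, KO minus WT was tested two-sided by the quasi-likelihood functions of edgeR 4.0.16 in R 4.3.3 without covariates, with Benjamini-Hochberg adjustment over 13265 rows and a threshold of 0.05. The test was checked on simulated counts drawn independently for each library. That check does not cover libraries that resemble each other in pairs, as the WT libraries do. The SE of a log2 fold change is its size over the square root of F. CPM and levels per length were computed here from the counts, with exons merged from GENCODE M21 on GRCm38. The ratio of the P-glycoprotein genes and the targeted genes were compared by exact two-sided permutation of log2 values over 70 assignments.

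Members, role groups, related lists and alternatives were chosen with earlier results of these data known. The counts cover all members, but 2 ABC genes and 1 partner gene are not reported here; every other ABC gene is named; called genes and the highest gene per length of each role are given by library, as are Abcb6 and Abcb9, chosen after their values were seen; from each related list up to 4 called genes with the smallest p are named, and others marked by their counts of 0 or as not tested. Alternatives tried were upper-quartile factors, DESeq2's size factors, library size alone, no filter, at least 5 CPM in 4 libraries, DESeq2 1.42.0, limma-voom (limma 3.58.1), the replicate number as a block, a threshold of 0.01, each library left out, and WT replicates 1 and 4 and 2 and 3 summed. A fit on annotated genes alone was added after seeing the data. Coding sequences, not protein records, were compared. RefSeq promoters (GRCm38.p6) matched 33 of 44 members; all 39 promoters were checked against GENCODE transcripts, and the bases after the start were found in transcript orientation for 36, in reverse orientation for 0 and in neither for 3 (Abca2, Abcb1a and Abcg2).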

Additional observations from a re-analysis of the deposited data

Results flagged for a closer look

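Of 44 groups of 4 libraries, 1 group for each genotype of 20 tested ABC genes and the targeted genes, 2 had 1 library far from the others by Dixon's criterion (gap over range above 0.829), and chance alone gives about 1 in 20. Abca7 had 101.4 CPM in KO replicate 2, with the other KO libraries between 81.7 and 83.73 CPM. Abcd2 had 0.5371 CPM in KO replicate 1, with the other KO libraries between 1.134 and 1.161 CPM.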

How the results depend on the processing

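Abcb1a and Tead1 kept their direction and their side of the threshold under every alternative run. The ratio of Abcb1b over Abcb1a was recomputed only with each library left out (-0.91 to -0.72), where its exact p was each time the smallest possible. At an adjusted p under 0.01, 1488 rows were called higher and 1248 lower, with 2 ABC genes higher (1 drug efflux, 0 lipid, 1 organelle) and 0 lower. With WT replicates 1 and 4 summed and 2 and 3 summed, 1652 rows were higher and 1482 lower, with 2 ABC genes higher (1 drug efflux, 0 lipid, 1 organelle) and 0 lower. The count of lower ABC genes, 1 drug efflux gene (Abcc1), was 0 with upper-quartile factors, library size alone, no filter, the 5 CPM filter and the block, and 3 with DESeq2, 2 of them organelle genes. Rows called lower in these fits numbered 1962, 2001, 2439, 2256, 2292 and 3139 in that order, against 2734 in the main fit. Lipid genes called higher numbered 1 with limma-voom, where 2872 rows were called higher, against 2779 in the main fit. Tead4 lost its call with upper-quartile factors (-0.51), library size alone (-0.50) and WT replicates summed (-0.75). Abca5 reversed without WT replicate 4 (-0.0713) and with WT replicates summed (-0.00550), and Abcb10 with upper-quartile factors (0.0464), library size alone (0.0478) and without WT replicate 3 (0.00300); neither was called. The lowest and highest values on leaving out 1 library were -0.0713 and 0.105 for Abca5, and -0.223 and 0.00300 for Abcb10. Leaving out each library gave 2041 to 3420 rows higher and 1768 to 3409 lower, 2 to 10 ABC genes higher and 0 to 2 lower, 1 to 3 and 0 to 1 for drug efflux, 0 to 4 and 0 to 0 for lipids, 1 to 3 and 0 to 1 for organelles and 0 to 1 higher for the others, with Tead1 at -1.77 to -1.33 and Tead4 at -0.83 to -0.57 (call lost without KO replicates 2 and 3 and WT replicates 1 and 4). The cause was not tested. The upper ends of higher calls for lipids, organelles and the others include genes that passed the filter on low counts through KO libraries, so they are no support for a difference. With the replicate number as a block, 4683 rows were called in either direction. Called higher were 2391 rows and 4 ABC genes (2 drug efflux, 1 lipid, 1 organelle). The calls of Abcc1 (edgeR adjusted p = 0.0676), Abca8b (0.0612) and Abcb8 (0.0567) were lost. Same-numbered KO and WT libraries deviated with correlations of -0.0317 to -0.00276, so no shared deviation was seen. The titles do not say whether they were handled together. The 22 untested genes had too few counts for a test.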
